A study of Mus musculus with 24 samples.

Results

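The Notch genes described here are 10 of the 24043 genes measured in C2C12 myoblasts. They are the receptors Notch1, Notch2 and Notch3, the ligands Dll1, Jag1 and Jag2, and the Hes and Hey family genes Hes1, Hes6, Hey1 and Heyl, and they were chosen by symbol for their place in the pathway. C2C12 is an established mouse line of proliferating muscle precursor cells descended from 1 clone, which fuse into myotubes when serum is lowered. The 4 groups share this line and carry no genetic change in the labels. Normoxic growth cells (GM, NOR) were kept in DMEM with 10% fetal bovine serum at 21% oxygen, and hypoxic growth cells (GM, HYP) in the same medium at 2% oxygen. Normoxic differentiation cells (DM, NOR) and hypoxic differentiation cells (DM, HYP) were moved to DMEM with 2% horse serum and an insulin, transferrin and selenium supplement, at 21% and 2% oxygen. The day of harvest and the length of the hypoxic exposure are not given in the sources used here. Each group has 2 RNA-seq libraries, A and B, which the series' design text calls biological replicates. Nothing in the labels says how the A and B cultures were kept apart, so p-values measure the spread between these libraries, which may be technical in part.

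Notch is a signal between touching cells. A ligand of the Delta-like or Jagged type on one cell binds a Notch receptor on its neighbour, the receptor is cut by an ADAM protease and then by gamma-secretase, and the freed intracellular domain joins the DNA-binding protein RBPJ and a Mastermind coactivator in the nucleus to switch on Hes and Hey genes. In skeletal muscle the pathway is known for holding precursor cells back from differentiation, partly through Hes and Hey repressors that oppose the myogenic factors. Only transcript levels were measured here, not ligand at the cell surface or cleaved receptor.

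The labelled cell state was checked first. The summed level of 9 myoblast and myotube markers was 448 and 370 FPKM (fragments scaled to transcript length and to the library's mapped fragments) in the normoxic growth libraries A and B. It was 7040 and 7040 in normoxic differentiation, 99.6 and 108 in hypoxic growth, and 64.4 and 85.6 in hypoxic differentiation. Myog, the factor that drives terminal differentiation, stood at 2576 and 2642 FPKM in normoxic differentiation but at 4.49 and 2.14 in hypoxic differentiation. The name of the latter group therefore refers to its medium and not to myotube formation. Likewise, differentiation in hypoxia below means the change of medium at low oxygen. Myod1, which defines the myoblast, was present in every library, from 6.95 to 180 FPKM. The 2 hypoxic differentiation libraries stood apart from each other: 613 of the 12389 tested genes differed by more than 2-fold between them, against 56 to 71 in the other groups. A list of 20 cell cycle genes summed to 205 FPKM in A and 699 in B, where the other pairs were 529 and 540 (normoxic growth), 155 and 161 (normoxic differentiation), and 349 and 316 (hypoxic growth). A library's FPKM summed to 480018 to 534167, 14917 to 15672 genes were above 0, and relative depth ran from 0.633 (hypoxic differentiation B) to 1 (hypoxic differentiation A). The part of the cell cycle difference in the results for this group was not tested. Among the other cell types that use Notch genes, all 8 endothelial markers were under 1 FPKM in every library, with Tie1 and Emcn at 0, and their sum ran from 0.0363 to 0.553 FPKM. Of the 6 smooth muscle and pericyte markers, Myh11 and Rgs5 were under 1 FPKM in every library. Pdgfrb, a mural marker that other mesenchymal cells also carry, measured 79.5 and 76.1 FPKM in normoxic growth, 10.8 and 9.97 in normoxic differentiation, 42.4 and 46.9 in hypoxic growth, and 10.7 and 11.0 in hypoxic differentiation. Cspg4, another mural marker, ran from 5.07 to 9.49 FPKM in 3 groups and was 17.2 and 18.2 in hypoxic growth. The list's sum, which holds the muscle gene Des, was 277 to 314 in normoxic growth, 489 to 501 in normoxic differentiation, 121 to 132 in hypoxic growth and 47.6 to 77.3 in hypoxic differentiation. Of 5 immune markers in the table, Cd3e was at 0 in every library, and Ptprc, which defines leukocytes, was at most 0.0137 FPKM. The immune sum was 1.84 to 3.59 in the first 3 groups and 25.8 and 42.9 in hypoxic differentiation, nearly all of it Cd68. Of 6 neural markers, Snap25 was at 0 in every library, and the sum was 5.14 to 16.4 in the first 3 groups and 37.6 and 66.4 in hypoxic differentiation, nearly all of it Tubb3. The 6 fibroblast markers summed to 314 to 331 in normoxic growth, 153 to 170 in normoxic differentiation, 208 to 213 in hypoxic growth and 233 to 234 in hypoxic differentiation. Most of the sum was Col1a2, with means of 288, 110, 180 and 187 FPKM in that order. Col1a1 averaged 18.8, 44.6, 21.8 and 37.3, Pdgfra 11.2, 0.858, 5.12 and 0.892, and Dcn 4.78, 5.70, 3.41 and 8.88. Lum and Thy1 were under 1 FPKM in every library. Of 6 adipocyte markers, Plin1, Cidec and Lep were at 0 throughout, and the sum, mostly Pparg, ran from 1.78 to 6.55. The part of these markers in the Notch results was not tested.

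Promoter sequences are shown for Dll1 and Hes6, a ligand and a Hes gene that both differed with oxygen in growth medium. RefSeq promoters on GRCm38.p6 covered 7 of the 10 members with 9 start sites, and Hes1, Hey1 and Heyl have no entry in the table used. The authors' files name mm9, so these windows serve for sequence only. Each window holds the 250 bases before a start on the gene's strand, and capitals mark E-boxes (CANNTG on either strand), the hexamer read by basic helix-loop-helix factors such as the myogenic factors.
Dll1, start 1, chr17:15376933-15377182, minus strand: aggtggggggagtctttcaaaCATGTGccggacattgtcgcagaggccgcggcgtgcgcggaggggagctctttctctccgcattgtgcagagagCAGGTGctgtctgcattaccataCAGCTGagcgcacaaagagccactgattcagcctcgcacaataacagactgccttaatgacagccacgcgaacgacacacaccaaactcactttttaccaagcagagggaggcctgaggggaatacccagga
Dll1, start 2, chr17:15375824-15376073, minus strand: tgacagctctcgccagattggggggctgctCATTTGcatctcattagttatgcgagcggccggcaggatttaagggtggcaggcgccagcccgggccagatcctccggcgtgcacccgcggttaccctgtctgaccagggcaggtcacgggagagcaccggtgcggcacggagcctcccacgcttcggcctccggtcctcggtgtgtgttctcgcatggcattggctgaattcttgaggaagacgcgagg
Hes6, start 1, chr1:91414039-91414288, minus strand: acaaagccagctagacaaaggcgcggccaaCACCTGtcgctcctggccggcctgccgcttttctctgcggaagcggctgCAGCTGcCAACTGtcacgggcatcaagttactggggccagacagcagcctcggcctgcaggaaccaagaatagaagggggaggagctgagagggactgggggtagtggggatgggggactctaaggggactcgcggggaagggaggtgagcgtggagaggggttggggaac
Hes6, start 2, chr1:91413223-91413472, minus strand: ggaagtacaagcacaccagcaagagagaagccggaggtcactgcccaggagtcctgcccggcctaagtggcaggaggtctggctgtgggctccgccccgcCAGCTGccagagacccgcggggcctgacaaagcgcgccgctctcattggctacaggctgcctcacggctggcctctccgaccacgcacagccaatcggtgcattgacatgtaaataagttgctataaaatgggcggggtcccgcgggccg

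The first Dll1 window holds 3 E-boxes, of which the one nearest the start, at 132 to 127 bases before it, reads CAGCTG, and the second holds 1, at 220 to 215 bases. The first Hes6 window holds 3 E-boxes, with CAGCTG at 171 to 166 bases before the start, and the second holds 1, also CAGCTG, at 150 to 145 bases. Over the members, 5 of 9 windows hold an E-box and 4 of 9 hold CAGCTG, against 66.2% and 13.0% of all 32851 windows of this length in the table. The letters TGGGAA, the core that RBPJ reads, are in 0 of the 9 windows and in 21.6% of all windows. Hes1, Hey1 and Heyl, the members known as targets or readouts of Notch, have no window, so this count does not cover them. Of the hypoxia response element cores, ACGTG is in the Notch3 window alone (16.6% of all windows), and GCGTG in 8 of 9 (28.2%). The members' windows had a median GC content of 64.0% (56.0% to 87.2%), against 52.4% over all windows, and GCGTG and CAGCTG are themselves rich in G and C. E-box and CAGCTG counts overlap, since the second is one form of the first, and both strands were searched.

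All 10 members passed the expression filter, which asks for a group mean of 1 FPKM or more. Heyl did so only through the normoxic groups, and Jag1 (normoxic growth) and Dll1 (hypoxic growth) each had 1 group mean under 1 FPKM. Changes below are differences of log2(FPKM + 1) ± SE from limma with 2 libraries a group, adjusted over 12389 genes. Adding 1 shrinks the changes of weakly expressed genes. The 4 changes share groups: normoxic growth, for example, is the baseline of both differentiation in normoxia and hypoxia in growth medium. In bulk RNA, fewer cells of a kind and less RNA in each cell cannot be told apart.

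**Figure D1:**
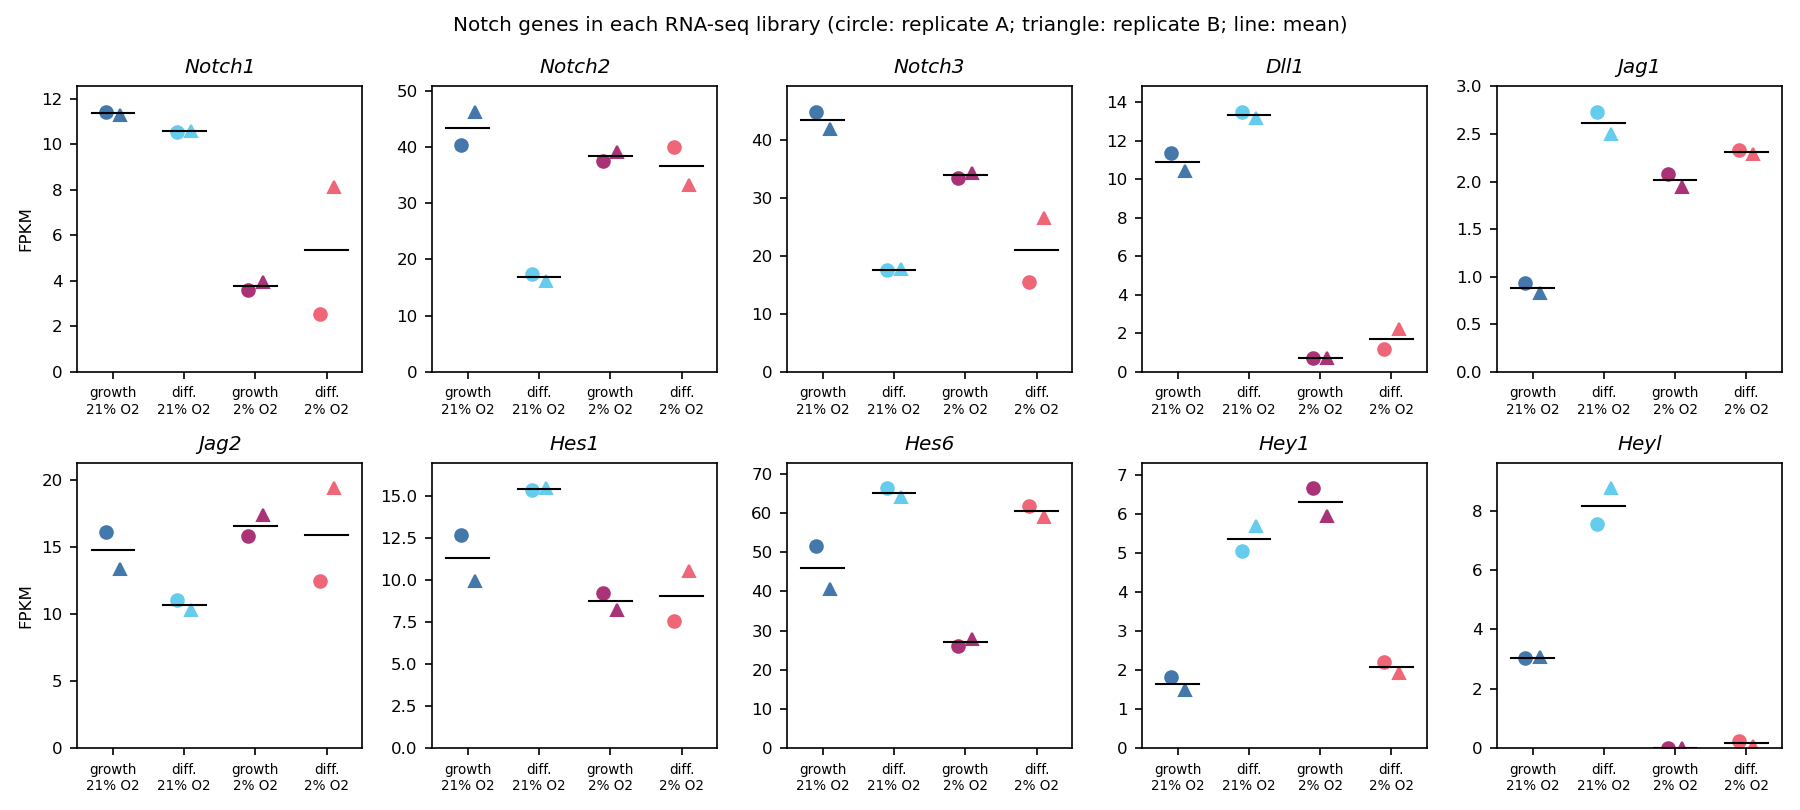
Level of each of the 10 Notch genes in FPKM (linear axes from 0, one panel a gene) in every library; circles are library A, triangles library B, and lines the mean of the 2 in each group. Dll1 and Heyl are near 0 in both hypoxic groups, Hey1 is high in normoxic differentiation and hypoxic growth, and the Notch1 points of hypoxic differentiation lie far apart, at 2.56 and 8.15.

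Among the receptors, Notch2 and Notch3 fell on differentiation in normoxia and Notch1 did not pass the test, while Notch1 was lower at low oxygen in growth medium and Notch2 was higher at low oxygen in differentiation medium. Notch2, a receptor that muscle precursors carry, measured 40.5 and 46.3 FPKM in the normoxic growth libraries A and B. Its normoxic differentiation values were 17.4 and 16.2, its hypoxic growth values 37.6 and 39.1, and its hypoxic differentiation values 40.0 and 33.2. The normoxic differentiation libraries were the lowest and overlapped with no other group, and the 2 hypoxic groups overlapped with each other. Notch2 fell 2.58-fold on differentiation in normoxia (a log2 change of −1.31 ± 0.11, adjusted p = 8.58e-05). In hypoxia the change on differentiation was −0.07 ± 0.11 (adjusted p = 0.658), or 0.060 without hypoxic differentiation B. The difference of these 2 changes, the interaction of medium and oxygen, was 1.24 ± 0.16 (adjusted p = 0.00094). In differentiation medium Notch2 was 2.18-fold higher at low oxygen (1.07 ± 0.11, adjusted p = 0.000215), and in growth medium the difference was −0.17 ± 0.11 (adjusted p = 0.274).

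Notch3, a receptor of precursor and mural cells, measured 44.7 and 41.8 FPKM in normoxic growth, 17.5 and 17.7 in normoxic differentiation, 33.4 and 34.3 in hypoxic growth, and 15.5 and 26.6 in hypoxic differentiation. The last 2 values enclose the normoxic differentiation values, and all other groups were separate. It fell 2.46-fold on differentiation in normoxia (−1.25 ± 0.22, adjusted p = 0.0021). On differentiation in hypoxia the fall was −0.71 ± 0.22 (adjusted p = 0.0391). Without hypoxic differentiation A that value is −0.34 and without B it is −1.08. It missed the threshold when any 1 of the other 6 libraries was left out, with an adjusted p up to 0.152. The interaction was 0.54 ± 0.31 (adjusted p = 0.174), so a difference between the 2 falls was not shown. The oxygen difference of Notch3 in growth medium was −0.35 ± 0.22 (adjusted p = 0.243). At the same size it passed without hypoxic differentiation A (adjusted p = 0.00531) or B (0.0054), with only the libraries compared (0.0179) and with array weights (0.045). In differentiation medium the difference was 0.20 ± 0.22 (adjusted p = 0.445), or 0.57 without hypoxic differentiation A (adjusted p = 0.00099) and −0.17 without B. Of the mural markers given above, Pdgfrb was also high in normoxic and hypoxic growth, and the others differed from it. Cspg4 was highest in hypoxic growth, and Des in normoxic differentiation. Cnn1 had its highest mean in hypoxic differentiation, at 0.580 FPKM in A and 3.82 in B. Myh11 and Rgs5 were under 1 FPKM in every library. The part of mural markers in the Notch3 values was not tested.

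Notch1, the receptor best known from satellite cells, measured 11.4 and 11.3 FPKM in normoxic growth and 10.6 and 10.6 in normoxic differentiation. Hypoxic growth gave 3.59 and 3.97, and hypoxic differentiation 2.56 and 8.15. Every hypoxic library was below every normoxic one. In growth medium Notch1 was 3.01-fold lower at low oxygen (−1.37 ± 0.39, adjusted p = 0.0287). The SE is the largest among the members, and the hypoxic differentiation values differ 3.18-fold. Without A of that pair the adjusted p is 8.18e-05, and without B it is 8.52e-05; the library left in is then assumed to vary like the other groups. Leaving out any 1 of the other 6 libraries takes the call to an adjusted p between 0.0661 and 0.126, with the change between −1.31 and −1.43. In differentiation medium the difference was −1.02 ± 0.39 (adjusted p = 0.0529), and it is −0.34 without hypoxic differentiation A and −1.70 without B. It passed after rescaling by the median of ratios (−1.21, adjusted p = 0.0181) or the upper quartile (−1.08, adjusted p = 0.0289), and with array weights (adjusted p = 0.02). Differentiation changed Notch1 by −0.10 ± 0.39 in normoxia (adjusted p = 0.84, 95% interval −1.02 to 0.83) and by 0.26 ± 0.39 in hypoxia (adjusted p = 0.637), and the latter is 0.94 without hypoxic differentiation A and −0.43 without B. The interaction was 0.35 ± 0.54 (adjusted p = 0.61).

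FPKM is per length, so the 3 receptors can be set against each other within a library. Their summed level was 96.6 and 99.4 FPKM in normoxic growth, 45.4 and 44.5 in normoxic differentiation, 74.6 and 77.4 in hypoxic growth, and 58.1 and 68.0 in hypoxic differentiation. Notch1 was 11.8% and 11.4% of that sum in normoxic growth, 23.2% and 23.8% in normoxic differentiation and 4.82% and 5.13% in hypoxic growth. The Notch1 share of normoxic differentiation stood above that of normoxic growth while the Notch1 level itself was not called different. In hypoxic differentiation it was 4.41% in A and 12.0% in B. Notch2 held 36.5% to 50.6% of the receptor sum in the first 3 groups and 68.9% and 48.9% in hypoxic differentiation.

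**Figure D2:**
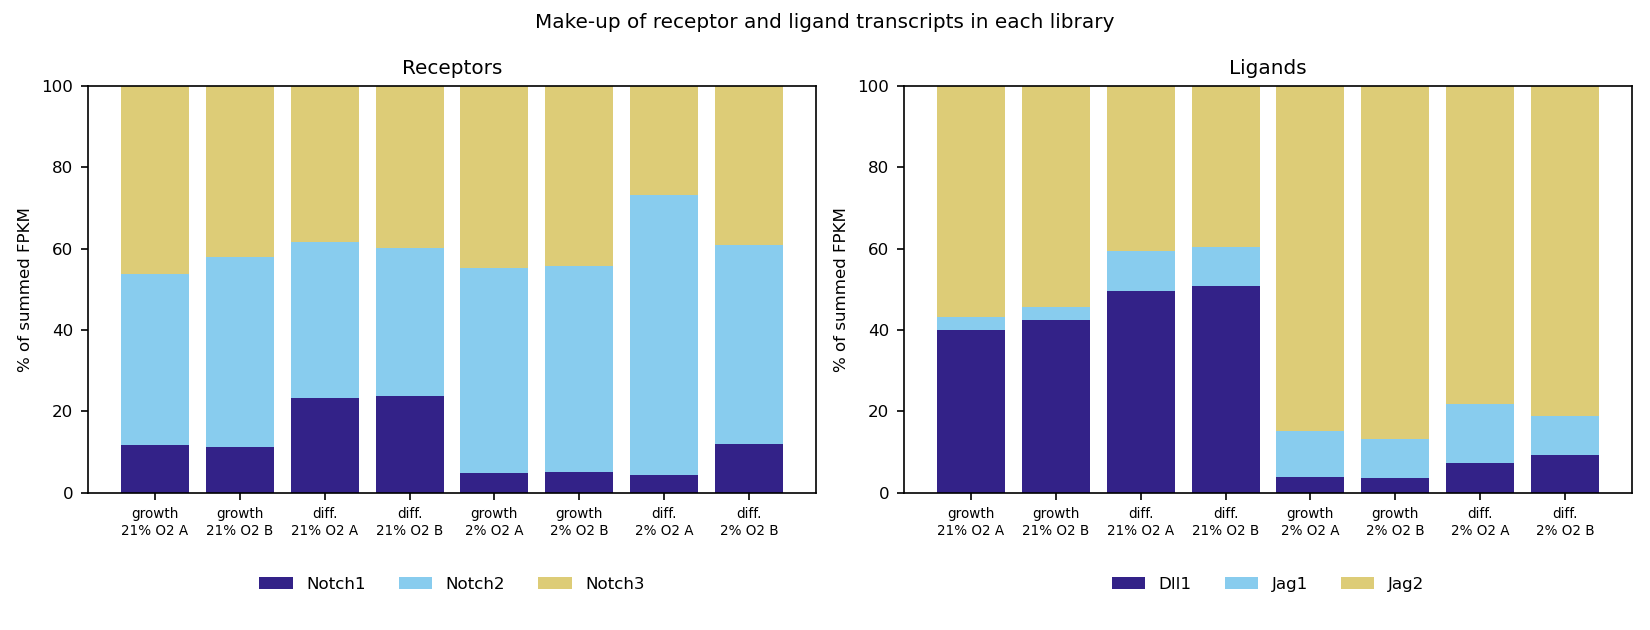
Share of the summed FPKM of the 3 receptors (Notch1, Notch2, Notch3) and of the 3 ligands (Dll1, Jag1, Jag2), in percent, stacked for each of the 8 libraries. Dll1 takes 39.9% to 50.8% of the ligand sum in the normoxic libraries and 3.57% to 9.29% in the hypoxic ones, and Jag2 fills most of the rest.

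Dll1 was the ligand that changed most with oxygen. It is the Delta-like ligand that muscle precursors and their descendants present to their neighbours. Its values were 11.4 and 10.5 FPKM in normoxic growth and 13.5 and 13.2 in normoxic differentiation. At low oxygen they were 0.735 and 0.715 in growth medium and 1.18 and 2.22 in differentiation medium. No hypoxic library reached a normoxic one, and the 4 groups did not overlap. Dll1 was 15.0-fold lower in FPKM in hypoxic than in normoxic growth (−2.79 ± 0.18, adjusted p = 0.000119) and 7.88-fold lower in hypoxic than in normoxic differentiation (−2.44 ± 0.18, adjusted p = 4.25e-05). Both calls held under all the alternatives run. Differentiation raised Dll1 in hypoxia by 0.62 ± 0.18 (adjusted p = 0.0348), with 0.33 without hypoxic differentiation B and 0.90 without A, and this call was lost without any 1 of the other 6 libraries (adjusted p up to 0.139). In normoxia the change was 0.27 ± 0.18 (adjusted p = 0.225), with an adjusted p of 0.0206 without hypoxic differentiation A and 0.0213 without B. It was 0.53 after rescaling by the median of ratios (adjusted p = 0.0202). The interaction was 0.35 ± 0.26 (adjusted p = 0.292).

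Jag1, a Jagged ligand, was low throughout. It measured 0.938 and 0.823 FPKM in normoxic growth, 2.73 and 2.50 in normoxic differentiation, 2.08 and 1.95 in hypoxic growth, and 2.33 and 2.29 in hypoxic differentiation. Normoxic growth was the lowest group, and none of the groups overlapped. Jag1 rose 2.97-fold on differentiation in normoxia (0.94 ± 0.09, adjusted p = 0.000168) and was 2.28-fold higher in hypoxic than in normoxic growth (0.68 ± 0.09, adjusted p = 0.00196). On differentiation in hypoxia it changed by 0.14 ± 0.09 (adjusted p = 0.293), and the interaction was −0.81 ± 0.13 (adjusted p = 0.0027).

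Jag2, the other Jagged ligand, was the one member called in none of the 5 comparisons with all libraries and the deposited scaling. Its values were 16.1 and 13.4 FPKM in normoxic growth, 11.0 and 10.3 in normoxic differentiation, 15.8 and 17.4 in hypoxic growth, and 12.5 and 19.4 in hypoxic differentiation. Hypoxic growth, hypoxic differentiation and normoxic growth overlapped in turn, with normoxic differentiation below all. The largest fitted changes were 0.50 ± 0.20 for hypoxia in differentiation medium (adjusted p = 0.0593, 95% interval 0.032 to 0.98) and −0.43 ± 0.20 for differentiation in normoxia (adjusted p = 0.0949). At the same size the latter passed without hypoxic differentiation A (adjusted p = 0.0113) or B (0.0115), with only the libraries compared (0.0229) and with array weights (0.018). After leaving out hypoxic differentiation A, the change with low oxygen in differentiation medium is 0.80 with an adjusted p of 0.00216, and without B it is 0.21.

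The summed ligand level was 28.4 and 24.7 FPKM in normoxic growth, 27.3 and 26.0 in normoxic differentiation, 18.6 and 20.0 in hypoxic growth, and 16.0 and 23.9 in hypoxic differentiation. Every hypoxic library was below every normoxic one in this sum. The share of Jag2 in it was 56.8% and 54.3% in normoxic growth and 84.9% and 86.7% in hypoxic growth, where Dll1 held 3.95% and 3.57%.

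Of the Hes and Hey genes, Hey1 alone among the 10 members was called in all 5 comparisons. It encodes a repressor that Notch signalling is known to induce. It measured 1.83 and 1.48 FPKM in normoxic growth, 5.05 and 5.68 in normoxic differentiation, 6.65 and 5.94 in hypoxic growth, and 2.22 and 1.94 in hypoxic differentiation. The order of the group means was hypoxic growth, normoxic differentiation, hypoxic differentiation and normoxic growth, and no 2 neighbours overlapped. Hey1 rose 3.24-fold on differentiation in normoxia (1.26 ± 0.12, adjusted p = 0.000141) and fell 3.03-fold on differentiation in hypoxia (−1.24 ± 0.12, adjusted p = 0.000763). The interaction, −2.51 ± 0.17 (adjusted p = 7.13e-05), was the largest in size among the members. Low oxygen raised it 3.80-fold in growth medium (1.46 ± 0.12, adjusted p = 0.000277) and lowered it 2.58-fold in differentiation medium (−1.05 ± 0.12, adjusted p = 0.000336). All 5 calls held under every alternative run.

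Heyl, a Hey family gene known as a Notch target in muscle precursors, was nearly absent at low oxygen. Its normoxic values were 3.04 and 3.06 FPKM in growth and 7.56 and 8.75 in differentiation medium. The hypoxic ones were 0.0223 and 0.0237 in growth and 0.239 and 0.0943 in differentiation medium. Low values of the gene come in whole steps of 1 fragment, to within 0.000119% for the hypoxic libraries, so that the 2 hypoxic growth libraries hold 1 fragment each and the hypoxic differentiation libraries 12 and 3. The normoxic libraries hold the equivalent of 106 to 376.5. The normoxic growth level was 132.6 times the hypoxic one (95% counting interval 36.7 to 1095, exact Poisson on the 2 hypoxic fragments), and in differentiation medium the ratio was 49.0 (29.7 to 87.5, on 15 fragments). These intervals cover counting error only. On the fitted scale, Heyl was lower at low oxygen, with a change of −1.99 ± 0.11 in growth medium (adjusted p = 7.48e-05) and −2.97 ± 0.11 in differentiation medium (adjusted p = 2.19e-06).

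Heyl rose 2.67-fold on differentiation in normoxia (1.17 ± 0.11, adjusted p = 0.000128). The change in hypoxia was 0.19 ± 0.11 (adjusted p = 0.223), and the interaction −0.99 ± 0.16 (adjusted p = 0.00224). In FPKM the hypoxic means differed 7.24-fold, so that as a ratio the direction of the interaction turns. The 95% counting interval, 1.68 to 65.2, holds the normoxic 2.67 (exact binomial on 15 and 2 steps taken as fragments). The fitted values depend on the pseudocount. With 0.1 in place of 1, the change in hypoxia was 1.06 (adjusted p = 0.0259) and the interaction was −0.33 (adjusted p = 0.524).

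Hes1, a repressor widely used as a readout of Notch signalling, ranged from 7.54 to 15.4 FPKM. Its values were 12.7 and 9.96 FPKM in normoxic growth, 15.4 and 15.4 in normoxic differentiation, 9.21 and 8.23 in hypoxic growth, and 7.54 and 10.5 in hypoxic differentiation. Normoxic differentiation was above all other groups, which overlapped in turn. One comparison was called: Hes1 was 1.70-fold lower in hypoxic than in normoxic differentiation (−0.72 ± 0.17, adjusted p = 0.00913). Without normoxic differentiation A its adjusted p is 0.0537, and without B it is 0.0556. The rise on differentiation in normoxia missed the threshold (0.42 ± 0.17, adjusted p = 0.0665) with the deposited scaling, and had an adjusted p of 0.0197 without hypoxic differentiation A and 0.02 without B. It passed after rescaling by the median of ratios (0.68, adjusted p = 0.00464) or by the upper quartile (0.55, adjusted p = 0.012).

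Hes6, which is known to oppose Hes1 and to favour myogenic differentiation and is not a usual Notch target, was the most abundant of the 4 in every library. It measured 51.5 and 40.7 FPKM in normoxic growth, 66.3 and 64.0 in normoxic differentiation, 26.2 and 27.9 in hypoxic growth, and 61.9 and 59.1 in hypoxic differentiation. The 4 groups did not overlap, with hypoxic growth lowest. Hes6 rose on differentiation 1.41-fold in normoxia (0.50 ± 0.12, adjusted p = 0.008) and 2.24-fold in hypoxia (1.13 ± 0.12, adjusted p = 0.000875). Without normoxic differentiation A the first has an adjusted p of 0.0526. In growth medium it was 1.70-fold lower at low oxygen (−0.74 ± 0.12, adjusted p = 0.00303), and in differentiation medium the difference was −0.10 ± 0.12 (adjusted p = 0.449). The interaction of 0.63 ± 0.16 (adjusted p = 0.016) did not survive rescaling, with an adjusted p of 0.194 by the median of ratios and 0.0964 by the upper quartile. It also missed the threshold without normoxic differentiation A, normoxic differentiation B or hypoxic growth A, with an adjusted p up to 0.064.

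The ratio of Hes6 to Hes1 within a library was 4.07 and 4.09 in normoxic growth, 4.32 and 4.15 in normoxic differentiation, and 2.85 and 3.39 in hypoxic growth. Hypoxic differentiation had the highest ratios, 8.22 and 5.60.

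**Figure D3:**
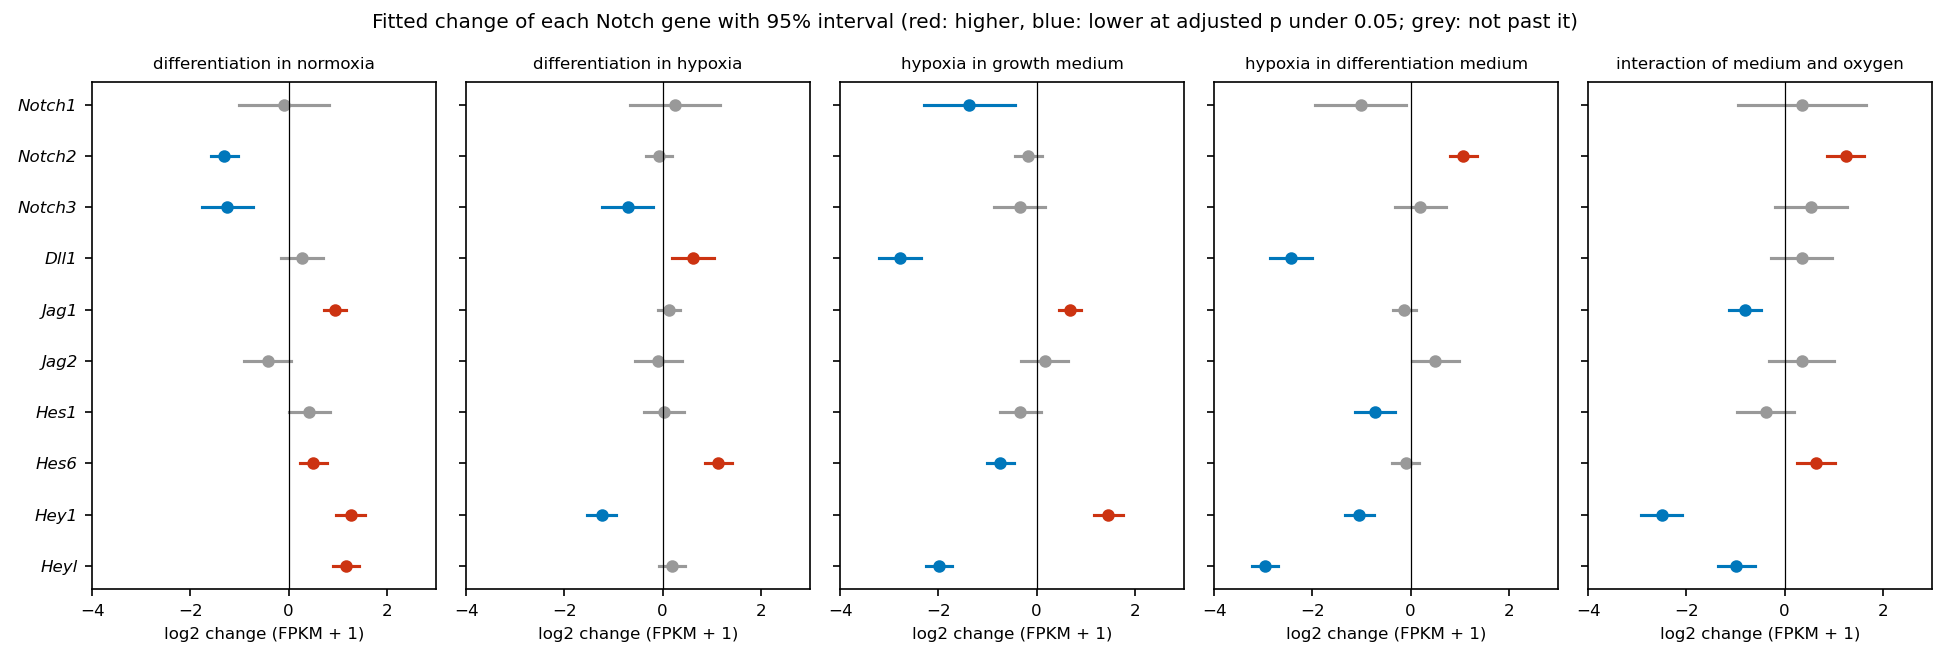
Fitted change of each member, as a difference of log2(FPKM + 1) with its 95% confidence interval, in each of the 5 comparisons; red points are higher and blue points lower at an adjusted p under 0.05, and grey points did not pass. Dll1 and Heyl lie far below 0 in both oxygen comparisons (−2.79 and −2.44, −1.99 and −2.97), and Hey1 lies on opposite sides of 0 in the 2 media.

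Counted over the 10 members, differentiation in normoxia raised 4 (Jag1, Hes6, Hey1, Heyl) and lowered 2 (Notch2, Notch3). Rescaled, it raised 6 and lowered 2 by the median of ratios, and raised 5 and lowered 2 by the upper quartile. As deposited, 66.5% of all tested genes were called, 25.5% higher and 41.0% lower. The median of ratios gave 8082 called genes, 53.2% of them higher, and the upper quartile 8128, 45.5% of them higher. As deposited 38.4% of the called genes were higher. Differentiation in hypoxia raised 2 (Dll1, Hes6) and lowered 2 (Notch3, Hey1), with 40.9% of all genes called, 23.3% higher and 17.6% lower. Low oxygen in growth medium raised 2 (Jag1, Hey1) and lowered 4 (Notch1, Dll1, Hes6, Heyl), with 41.4% called over all genes, 13.5% higher and 28.0% lower. In differentiation medium low oxygen raised 1 (Notch2) and lowered 4 (Dll1, Hes1, Hey1, Heyl), with 65.2% called, 37.5% higher and 27.7% lower. The rescaled splits were 1 higher and 6 lower by the median of ratios, and 2 and 5 by the upper quartile. Over all genes these scalings called 8061, 46.7% of them higher, and 8114, 54.9% of them higher. As deposited 57.5% of the called genes were higher. The interaction was positive in 2 (Notch2, Hes6) and negative in 3 (Jag1, Hey1, Heyl), with 54.1% called, 35.4% positive and 18.7% negative. After rescaling by the median of ratios that split was 1 and 4, as it was by the upper quartile. Hes6 was then no longer called and Hes1 was called negative. Over all genes these scalings called 6244, 47.7% of them positive, and 6300, 53.8% of them positive. As deposited 65.45% of the called genes were positive. Libraries of the groups compared did not overlap in 10, 6, 9 and 9 members for the first 4 comparisons in that order, against 87.0%, 70.3%, 77.2% and 83.1% of all tested genes, and the interaction had the same sign in A and B in 9 members, against 83.5%. No count is called particular to these 10 genes.

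The members' median change was 0.35 on differentiation in normoxia (all genes −0.20), 0.08 on differentiation in hypoxia (0.07), −0.34 for low oxygen in growth medium (−0.14), −0.43 for low oxygen in differentiation medium (0.15) and 0.34 for the interaction (0.27). Rescaling by the median of ratios brings the median over all genes to 0.02, 0.03, −0.04, −0.02 and −0.01 in the same order, and the members' own medians to 0.60, 0.045, −0.23, −0.61 and 0.046.

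A wider list of 60 pathway genes that are no members placed these values in context. Of these, 46 passed the filter. Among the genes at or near 0, Dlk1 and Rbpjl were listed at 0 in all 8 libraries. The ligands Dll3 and Dll4, the receptor Notch4, the regulators Dtx1 and Nrarp, the corepressor Tle4, and Hes2, Hes3, Hes5, Hes7 and Helt stayed under 1 FPKM in every library. Hey2 was at 0 or up to 0.0216 in normoxia and between 0.145 and 1.08 in hypoxia. The canonical ligands and the receptors that reached 1 FPKM in a group were the 3 ligands and 3 receptors among the members. Nrarp, a feedback inhibitor that Notch is known to induce, was at most 0.476 FPKM.

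In normoxia 8 of the 46 rose on differentiation and 25 fell (14 and 18 once rescaled by the median of ratios, 9 and 21 by the upper quartile). The list's median was −0.41, or −0.15 by the median of ratios. Over all tested genes 25.5% rose and 41.0% fell as deposited, with a median of −0.20. Of all genes called, 38.4% were higher as deposited, 53.2% by the median of ratios and 45.5% by the upper quartile. The largest rises were those of Dlk2, a non-canonical ligand (2.46 ± 0.28, adjusted p = 0.000297), and Neurl1a, a ubiquitin ligase that acts on ligands (2.30 ± 0.13, adjusted p = 1.47e-05). Bhlhe40, a repressor related to the Hes family, rose by 1.75 and Mfng, a Fringe sugar transferase of the receptor, by 1.19. Mfng was at 0 in all 4 growth libraries and at 1.32 and 1.24 FPKM in normoxic differentiation, the only group through which it passed the filter. That is at least 12.6-fold higher than normoxic growth when 3 fragments a library are taken as the floor. In hypoxic differentiation it held the same 1 step in each library, and that step was taken as 1 fragment, also for the floor. The largest falls were those of Tle2, a Groucho corepressor (−3.56 ± 0.11, adjusted p = 9.96e-07), the Fringe gene Lfng (−1.59), Dtx3 (−1.42) and the coactivator Maml2 (−1.13). Tle2 went from 43.5 and 37.1 FPKM to 2.58 and 2.40. Of the 9 cleavage genes, 6 fell and 0 rose with the deposited scaling, while 4 fell and 3 rose after median-of-ratios scaling.

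On differentiation in hypoxia 6 rose and 10 fell, with a median of −0.03 (4 and 10, or 4 and 11, after the 2 rescalings). Over all tested genes 23.3% rose and 17.6% fell as deposited, with a median of 0.07. Of all genes called, 56.9% were higher as deposited, 53.0% by the median of ratios and 48.2% by the upper quartile. Among the largest rises in the list were Bhlhe41 (0.72), Fbxw7, which marks cleaved Notch for degradation (0.71), and Maml1 (0.49). Fbxw7 was 1.08 without hypoxic differentiation A and 0.35 without B. It lost its call without any 1 of the 6 libraries outside hypoxic differentiation (adjusted p up to 0.162), Bhlhe41 without either hypoxic growth library (up to 0.0564) and Maml1 without hypoxic growth A (0.0783). The largest falls were Tle2 (−0.95), Rbpj (−0.92), Snw1, an RBPJ cofactor (−0.82), and Maml3 (−0.78).

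Low oxygen in growth medium raised 5 and lowered 14, with a median of −0.14, or −0.030 by the median of ratios. Rescaled, the counts were 5 and 11 by the median of ratios and 7 and 11 by the upper quartile. Over all tested genes 13.5% rose and 28.0% fell as deposited, with a median of −0.14. Of all genes called, 32.6% were higher as deposited, 43.25% by the median of ratios and 49.1% by the upper quartile. In the list, Bhlhe40, a known target of hypoxia-inducible factors, rose most (2.39). It was followed by Rbpj (1.34), Dlk2 (1.32) and Numb, an inhibitor of Notch receptors (0.43). Dlk2 lost its call without normoxic growth A, normoxic growth B or hypoxic growth A, with an adjusted p up to 0.0706, and Numb without normoxic growth A, hypoxic growth A or hypoxic growth B, up to 0.12. The largest falls were Maml3 (−1.73), Tle2 (−1.45), Maml2 (−1.09) and Furin, the protease that matures the receptor (−0.93).

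Low oxygen in differentiation medium raised 21 and lowered 11, with a median of 0.22, or 0.020 by the median of ratios. Rescaled, the counts were 13 and 15 by the median of ratios and 21 and 12 by the upper quartile. Over all tested genes 37.5% rose and 27.7% fell as deposited, with a median of 0.15. Of all genes called, 57.5% were higher as deposited, 46.7% by the median of ratios and 54.9% by the upper quartile. The largest rises in the list were Bhlhe41 (1.55), Tle2 (1.16), the ligand ubiquitin ligase Neurl1b (1.03) and Numb (1.00). Neurl1a fell most (−3.01 ± 0.13, adjusted p = 3.98e-06), from 39.5 and 37.0 FPKM to 3.57 and 4.19, followed by Maml3 (−1.42), Tle3 (−1.35) and Dlk2 (−1.33). Neurl1b was 1.40 without hypoxic differentiation A and 0.66 without B, and Dlk2 −0.87 and −1.79. Of the 9 cleavage genes, 6 rose and 2 fell, or 3 rose and 2 fell after median-of-ratios scaling.

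The interaction was positive for 20 and negative for 8 list genes. Their median was 0.30, or 0.031 by the median of ratios and 0.11 by the upper quartile. Rescaled, the counts were 13 and 9 by the median of ratios and 15 and 8 by the upper quartile. Over all tested genes it was positive in 35.4% and negative in 18.7% as deposited, with a median of 0.27. Of all genes called, 65.45% were positive as deposited, 47.7% by the median of ratios and 53.8% by the upper quartile. In the list the interaction was most positive for Tle2 (2.61), Lfng (1.47), Rfng (1.30) and the gamma-secretase subunit Aph1b (1.16). It was most negative for Dlk2 (−2.64), Neurl1a (−2.36), Rbpj (−1.64) and Bhlhe40 (−1.58).

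**Figure D4:**
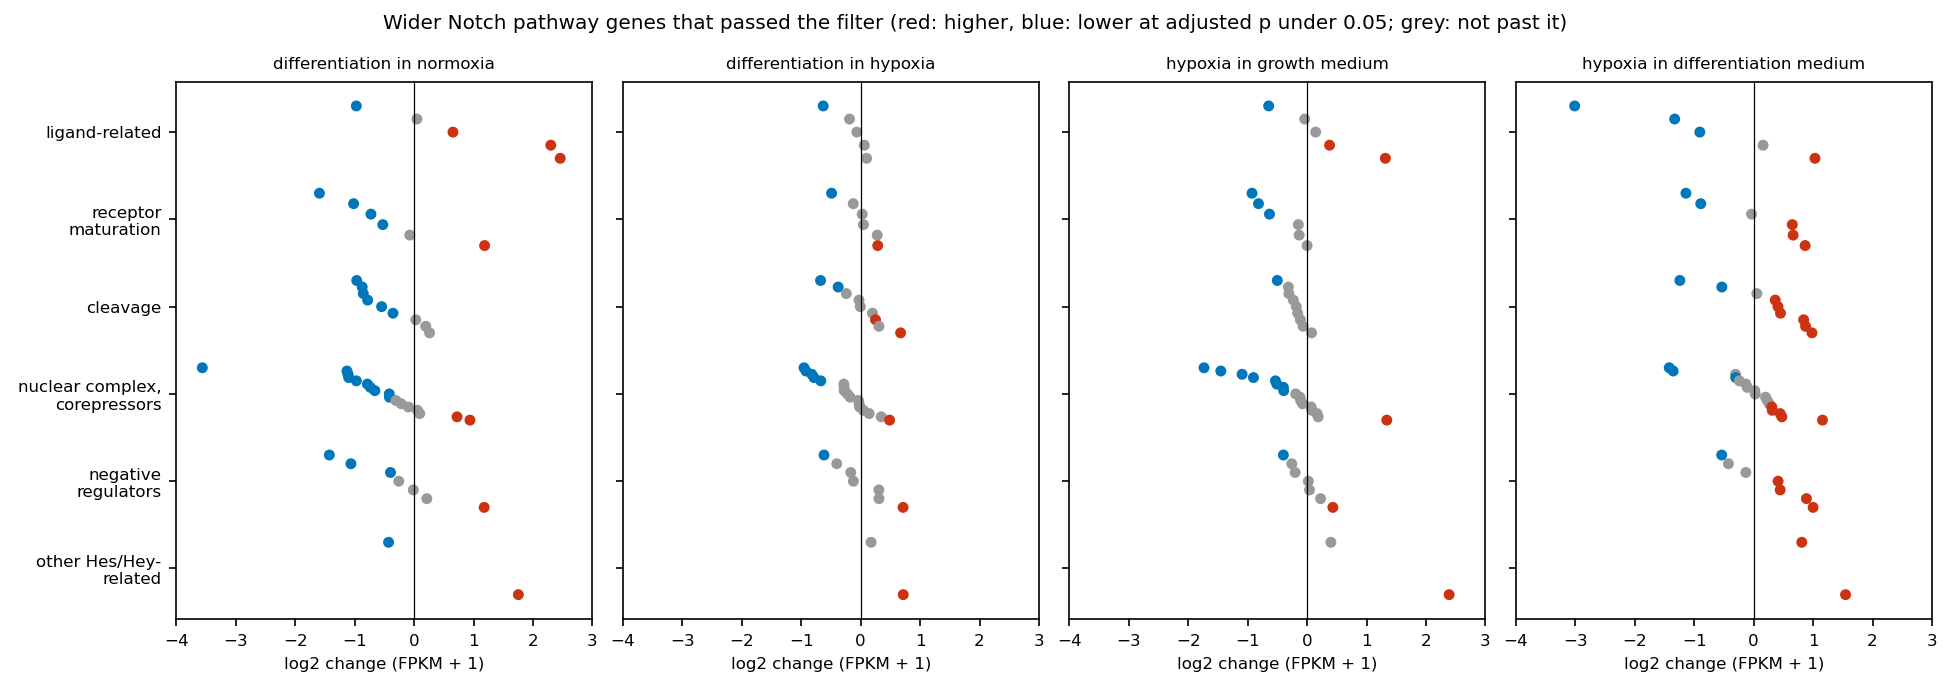
Fitted change, as a difference of log2(FPKM + 1), of the 46 wider Notch pathway genes that passed the filter, arranged by role, in 4 comparisons (the interaction is not drawn); red points are higher and blue points lower at an adjusted p under 0.05, and grey points did not pass. Tle2 falls furthest on differentiation in normoxia (−3.56) and Neurl1a falls furthest with low oxygen in differentiation medium (−3.01).

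Rbpj, the DNA-binding partner of every Notch receptor, was called in the same direction as Hey1 in each comparison. It measured 15.5 and 16.3 FPKM in normoxic growth, 27.5 and 26.3 in normoxic differentiation, 42.4 and 41.2 in hypoxic growth, and 22.8 and 20.5 in hypoxic differentiation. It rose on differentiation in normoxia (0.72 ± 0.08, adjusted p = 0.000298) and fell in hypoxia (−0.92 ± 0.08, adjusted p = 0.000603). Low oxygen raised it in growth medium (1.34 ± 0.08, adjusted p = 0.000101) and lowered it in differentiation medium (−0.30 ± 0.08, adjusted p = 0.0162). The last call is lost without either normoxic differentiation library, with an adjusted p up to 0.0906. Maml3, a Mastermind coactivator, was lower in every other group than in normoxic growth. It measured 9.65 and 9.72 FPKM there, 4.15 and 3.83 in normoxic differentiation, 2.08 and 2.35 in hypoxic growth, and 0.785 and 0.949 in hypoxic differentiation.

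For each member the 2 genes with the most similar profile over the 8 libraries were taken from 9862 genes of at least 5 FPKM in a group, by Pearson's r on the log2(FPKM + 1) scale. The 8 points share 4 conditions, and no p is given. Heyl was most like Chrnd (r = 0.998), the delta subunit of the muscle acetylcholine receptor, which averaged 20.2 FPKM in normoxic growth, 145 in normoxic differentiation, 0.306 in hypoxic growth and 0.730 in hypoxic differentiation, and next like Dlat (0.995). Dll1 was most like Rnf122 (0.998) and Tspan14 (0.994), a tetraspanin known to partner ADAM10. Notch2 was most like Gm10052 (0.998) and Rbbp9 (0.992), and Notch3 like Smurf1 (0.993) and Sema7a (0.992). Notch1 was most like Tada2a (0.985) and Ptcd1 (0.979), and Jag2 like Sorbs3 (0.978) and Dcaf4 (0.969). Jag1 was most like Ccdc115 (0.983) and Adm2 (0.982), Hes1 like Gsto1 (0.988) and Fbxo17 (0.977), Hes6 like Tpcn1 (0.991) and Edf1 (0.990), and Hey1 like Aimp1 (0.985) and Gid4 (0.983).

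Between the 2 hypoxic differentiation libraries, the members that differed most were Notch1 (3.18-fold), Heyl (2.53-fold), Dll1 (1.89-fold), Notch3 (1.72-fold) and Jag2 (1.55-fold). All of these except Heyl were higher in B, the library with the higher cell cycle genes, whose part was not tested. The Heyl values rest on 12 and 3 steps taken as fragments. Hes1 differed 1.40-fold. Jag1 (1.02-fold), Hes6 (1.05-fold), Hey1 (1.14-fold) and Notch2 (1.20-fold) differed least, and the calls of these 4 genes held with either library left out. Without A, the change with low oxygen in differentiation medium was −0.34 for Notch1, 0.57 for Notch3 and 0.80 for Jag2. Without B these values were −1.70, −0.17 and 0.21. The interaction without A was 1.03 for Notch1, 0.92 for Notch3, 0.63 for Dll1 and 0.64 for Jag2. Without B it was −0.33, 0.17, 0.063 and 0.045 in the same order. The library left in is then assumed to vary like the other groups.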

How the data were processed

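The RNA-seq values are FPKM that the authors deposited, 1 column for each of 8 libraries and 1 row for each of 24043 gene symbols. The submitters' processing notes name STAR 2.5.1b, Cufflinks 2.2.1 and the build mm9, without saying what each did. Which annotation was used, whether counting was stranded and how libraries were scaled are not given in the sources used here, so a gene and its antisense partner may share fragments. Libraries were stranded total RNA, per the labels' protocols. Columns were matched to samples by title. The other 16 of the 24 samples (chromatin and input) were not analysed here.

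The 8 libraries were fitted together as 4 group means in limma 3.58.1 under R 4.3.3. Values entered as log2(FPKM + 1), and the variance prior followed mean expression. The fit had 4 residual and 2.61 prior degrees of freedom. Genes needed a mean of at least 1 FPKM in a group, which kept 12389 of the 17914 genes above 0 in any library. Tests are two-sided, p-values were adjusted by Benjamini-Hochberg over the 12389 genes, and the threshold was 0.05. An exact permutation test of 2 libraries against 2 cannot go below p = 0.333 and was not used. The statistics were checked on simulated data with few changed genes and the same spread in all groups. That check does not cover the large shares of genes called here or the wider spread of hypoxic differentiation.

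Named genes are the 10 members, the 4 largest called rises and falls of the wider list in each comparison, its genes at or near 0, and the 2 genes most correlated with each member. Some genes of these lists are not reported here. Maml3 and Rbpj are described per library as parts of the nuclear complex. The members and lists were chosen with earlier results of these data known. Absolute depth is unknown. Relative depth comes from the whole steps of low values. Alternatives were the pseudocount, the expression filter, 2 rescalings, fits of only the libraries compared, array weights, a replicate block, a minimum change and leaving out each library. The letters A and B name samples and give no shared day or batch.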

Additional observations from a re-analysis of the deposited data

Results flagged for a closer look

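For 5 of the 10 members the change on differentiation differed between the oxygen levels by the interaction term of limma, adjusted over all genes tested, against 54.1% of all tested genes. The difference, hypoxia minus normoxia on the log2(FPKM + 1) scale, was 1.24 for Notch2 (adjusted p = 0.00094), −0.81 for Jag1 (adjusted p = 0.0027), 0.63 for Hes6 (adjusted p = 0.016), −2.51 for Hey1 (adjusted p = 7.13e-05) and −0.99 for Heyl (adjusted p = 0.00224). Each had the same sign in the A and in the B libraries, as did 83.5% of all tested genes. The same libraries gave the calls, so the shared sign is no separate evidence. Hey1 rose in normoxia and fell in hypoxia, Notch2 fell and Jag1 rose in normoxia with no called change in hypoxia, and Hes6 rose in both. Cell cycle genes, which summed to 205 FPKM in hypoxic differentiation A and 699 in B, differ within the group these values rest on, and their part was not tested. With either of these libraries left out, the 5 calls held. Hes6 lost its call without normoxic differentiation A, normoxic differentiation B or hypoxic growth A (adjusted p up to 0.064) and after either rescaling (0.194 and 0.0964), and Heyl lost it with a pseudocount of 0.1 (−0.33, adjusted p = 0.524). In FPKM, Heyl rose 2.67-fold in normoxia, while its hypoxic means differed 7.24-fold. The direction of the Heyl difference therefore turns when it is taken as a ratio. The counting interval, 1.68 to 65.2 on 15 and 2 steps taken as fragments, holds the normoxic value.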

How the results depend on the processing

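Of the 835 single-member results under alternatives, 744 kept their direction and side of the threshold, 43 lost the call, 37 gained one and 11 changed sign. Every alternative run kept the calls of Hey1 in all 5 comparisons, of Notch2 in its 3, of Heyl for differentiation in normoxia and both oxygen comparisons, of Dll1 for both oxygen comparisons, of Notch3 for differentiation in normoxia and of Hes6 for differentiation in hypoxia. The cause of the changes below was not tested. Requiring a log2 change of at least 1 left fewer genes by construction: 13 of the wider list in place of 33 for differentiation in normoxia, 0 in place of 16 for differentiation in hypoxia, 6 in place of 19 for low oxygen in growth medium, 10 in place of 32 for low oxygen in differentiation medium and 17 in place of 28 for the interaction. For the 0, limma also found 0 of the 46 with a change of that size at an unadjusted p under 0.05, and 20 with any change. With that minimum 2 members were called for differentiation in hypoxia and 2 for the interaction. For differentiation in hypoxia the 4 members called became 2 without the expression filter and 2 with only the libraries compared, where the wider list gave 9. The Notch1 change on differentiation in normoxia was 0.16 once rescaled by the median of ratios and 0.027 by the upper quartile, and the Hes1 change on differentiation in hypoxia was −0.012 and −0.052.

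Leaving out 1 library at a time, member calls ran from 2 to 5 for differentiation in hypoxia, 4 to 8 for low oxygen in differentiation medium and 4 to 9 for the interaction. Wider-list calls ran from 7 to 19 for differentiation in hypoxia and 10 to 20 for low oxygen in growth medium, lowest in both without hypoxic growth A. The share of all genes called in these fits is not given, so the ranges are not read as particular to these lists. Sign changes came with hypoxic differentiation B left out, except Jag2 (hypoxic differentiation A) and, for Hes1, also hypoxic growth B. The ranges for differentiation in hypoxia were −0.43 to 0.94 for Notch1, −0.20 to 0.060 for Notch2, −0.38 to 0.21 for Jag2 and −0.18 to 0.25 for Hes1. For low oxygen in differentiation medium Notch3 ran from −0.17 to 0.57, and the Notch1 interaction from −0.33 to 1.03.

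With the replicate letter as a block, 48 of 50 member results were as reported. Notch1 for low oxygen in differentiation medium passed (adjusted p = 0.0478) and Dll1 on differentiation in hypoxia did not (adjusted p = 0.0507). The deviations of the A libraries correlated between groups at −0.17 to 0.04. They cannot tell whether the letters share a day or batch, because differences particular to a library may hide a shared effect. Depth limits Heyl and Mfng in hypoxia, which rest on few steps taken as fragments.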
